A study of Amphimedon queenslandica and Mnemiopsis leidyi and Nematostella vectensis with 36 samples.

Results

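The SP41 binding domain experiment measured where the isolated DNA binding domain (DBD) of one transcription factor of the marine sponge Amphimedon queenslandica attached in vitro to sheared genomic DNA of the same animal, amplified or native. All peaks of both deposited lists were taken, 15399 on amplified and 11904 on native DNA, which makes 27303 of the 120443 peaks in the 16 peak lists of the series. A peak was classed as shared when it overlapped a peak of the other list by at least 1 bp, and otherwise as amplified-only or native-only. The choice used positions alone, and no peak was dropped.

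Members of the SP family carry zinc fingers of the C2H2 kind, which in vertebrates recognise GC boxes, short GC-rich elements that frequently contain a CpG. EGR factors bind related GC-rich elements with zinc fingers of the same kind, and GLI and YY1 are zinc finger proteins with elements of their own, whereas NRF stands outside these families. DAP-seq stands for DNA affinity purification sequencing, in which a tagged factor made by in vitro translation pulls down adapter-ligated genomic fragments without chromatin, so that the sequence and the chemical state of the DNA are what it meets. Copying the fragments by PCR first (ampDAP-seq) erases cytosine methylation, and comparing both kinds of DNA asks where binding depends on the native state of the DNA.

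Both libraries used DNA of swimming larvae collected on Heron Island, labelled as 0 h, sheared to a mean of 200 bp and incubated with the DBD fused to HaloTag, a protein tag that allows capture. For the amplified library the ligated DNA went through 11 cycles of PCR before the incubation, and in both libraries the recovered DNA was amplified for 20 cycles. The titles name the factor SP41 in both, while the description of the protein reads AquSP41 for the amplified and AquSP for the native library. The amplified library held 2945461 usable fragments and the native library 2603367. There was 1 library for each kind of DNA, so no difference between them could be set against replicate error, and none was tested. Intervals given with shares are 95% Wilson intervals and cover counting error only. Positions count from 1 on contigs known by number, no source used here names the genome build, and gene annotations and sequences of the regions were not used here.

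On amplified DNA, 7384 of the 15399 peaks (48.0%, 47.2 to 48.7) had a native partner, and 8015 were amplified-only. On native DNA, 7281 of the 11904 peaks (61.2%, 60.3 to 62.0) had an amplified partner, and 4623 were native-only. Pooled over all 8 constructs of the series, the SP41 DBD included, these shares were 52.2% of amplified and 52.8% of native peaks. The SP41 DBD lay below the pooled share on amplified and above it on native DNA. Single constructs ran from 26.7 to 86.1% on amplified and from 25.4 to 77.4% on native DNA. With both lists cut to equal length by −log10 q, 52.9% of the amplified and 52.5% of the native peaks had a partner. Because nearly all partners were single, lists of equal length give nearly equal shares whatever the binding. The gap between the directions in the full lists therefore reflects their lengths. The log2 ratio of peak numbers, amplified over native, was 0.37. Per usable fragment, counted before down-sampling to 2865511 amplified fragments for peak calling, it was 0.19. Among peaks of at least 5-fold enrichment it was 1.04. With that limit in both lists, 12.7% of the amplified and 26.1% of the native peaks had a partner. Nearly all partners were single, since 49 amplified peaks met more than 1 native peak and 143 native peaks met more than 1 amplified peak.

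The strongest amplified peaks had partners that were also strong. At contig 2839, positions 998 to 1238, the amplified peak of highest −log10 q had a pileup of 582 fragments at its summit and 7.87-fold enrichment, and its native partner had a pileup of 236, 3.55-fold enrichment and rank 8 among native peaks. At contig 12932, positions 1462 to 1744, the amplified peak of rank 2 had a pileup of 534, and its partner, with 305, was the strongest native peak. The amplified peak of rank 3, at contig 11761, positions 11428 to 11829, had a pileup of 306 and a partner with 189 that held rank 5. The summits of these 3 pairs lay 4, 2 and 3 bp apart. In addition to the SP41 full length protein, the first held peaks of YY1 and GLI, the second of NRF, YY1, EGR and GLI and the third of the same 4 factors. The amplified peaks had 7.87, 4.41 and 5.11-fold enrichment, which with such pileups implies a high signal in the empty HaloTag control at all 3 places. The part of that signal in the peaks of several factors was not tested. Pileup, fold enrichment and q are the authors' values from lists with different controls and depths, so where they are set side by side between lists they are not on a common scale.

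By −log10 q, peaks found on a single kind of DNA were mostly weaker, and a few were among the strongest. Of the strongest 100 amplified peaks, 8 (4.11 to 15.0%) had no native partner, and of the strongest 100 native peaks, 6 (2.78 to 12.5%) had no amplified partner. Among the strongest 1000, these numbers were 165 and 111. The first amplified-only peak had rank 7, at contig 12686, positions 12660 to 12810, with a pileup of 181 and 8.08-fold enrichment. The nearest native peak was 16018 bp away and only GLI on amplified DNA had a peak there. The next were at contig 13490, positions 226094 to 226271, with rank 48, and at contig 13441, positions 222662 to 222909, with rank 53, and EGR had peaks on both kinds of DNA at each of them. The SP41 full length protein also had a peak on both at contig 13490, so of the SP41 constructs the DBD alone lacked a native peak there.

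Of the native-only peaks, the strongest had rank 28, at contig 13318, positions 77958 to 78205, with a pileup of 80 and 7.02-fold enrichment. The second, at contig 13519, positions 719731 to 719966, had rank 50, and the third, at contig 13489, positions 159560 to 159809, had rank 56. At all 3 of them the SP41 full length protein had a native and no amplified peak, as the DBD did, and EGR had a native peak. EGR also had an amplified peak at contigs 13318 and 13489.

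Sharing followed the strength of a peak by −log10 q in both lists. It was 80.0% in the strongest and 30.2% in the weakest decile of the amplified peaks, and 86.8% and 41.8% in those of the native peaks. The measures behind q behaved differently from each other. Across quartiles of summit pileup, from low to high, 18.2, 38.2, 55.3 and 80.1% of the amplified peaks were shared, against 40.8, 55.4, 67.6 and 80.8% of the native peaks. Across quartiles of fold enrichment the amplified peaks showed no such rise, with 53.2, 47.0, 42.7 and 48.9%, whereas native peaks had 53.7, 58.3, 62.1 and 70.5%. Median fold enrichment was thus 3.93 in shared and 4.003 in amplified-only peaks, and 3.86 in shared and 3.59 in native-only peaks, while median pileup was 42 and 25 on amplified DNA and 27 and 20 on native DNA. In the other constructs, the GLI DBD also had a lower median fold enrichment in shared than in amplified-only peaks (3.66 and 3.71), and the remaining 6 had a higher one.

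**Figure D1:**
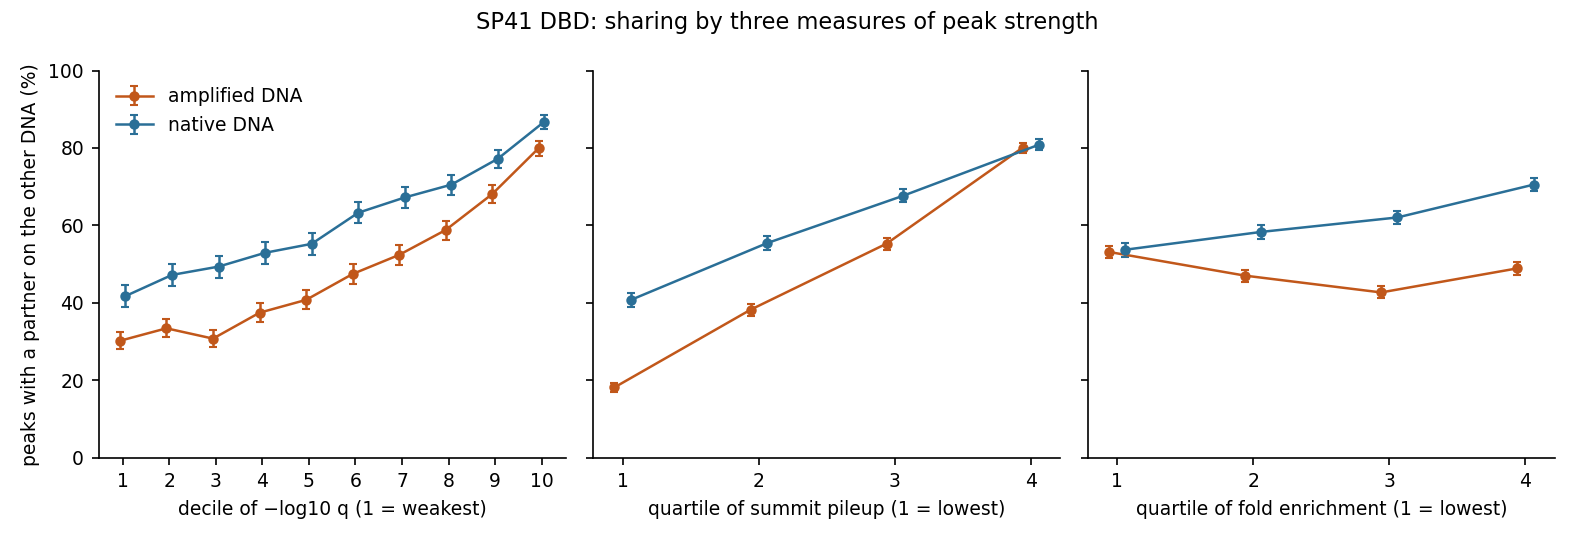
Share of SP41 DBD peaks with a partner on the other DNA (%, vertical axis) by decile of −log10 q, quartile of summit pileup and quartile of fold enrichment (horizontal axes, weak to strong) for amplified (orange) and native DNA (blue), with 95% Wilson intervals for counting error. Sharing climbs with q and pileup in both lists, and across fold enrichment the amplified points stay between 42.7 and 53.2%.

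The local background in the empty HaloTag control moved with sharing. It was computed from each peak's pileup and fold enrichment and is given in fragments. Its median was 9.52 at shared and 5.12 at amplified-only peaks, against a mean coverage of 2.37 over the effective genome, and 6.06 at shared and 5.02 at native-only peaks, against 2.25. In the quartile of amplified peaks with the highest background 76.3% were shared, in the lowest quartile 20.7%, and in those of the native peaks 73.4% and 46.9%. The part of background in the sharing was not tested. All 8 constructs had a higher median background at shared peaks than at peaks of a single kind of DNA, in both lists, and the SP41 DBD had the highest value of the 8 at amplified shared peaks.

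Shared peaks were wider than peaks of a single kind of DNA. Their median width was 214 bp, against 166 bp for amplified-only peaks, and on native DNA 224 bp against 180 bp for native-only peaks. Of the shared peaks, 5.72% on amplified and 8.45% on native DNA exceeded 500 bp, as did 0.399% of the amplified-only and 1.06% of the native-only peaks. The difference was also present within quartiles of −log10 q. In the strongest quartile the medians were 232 and 185 bp on amplified and 259 and 196 bp on native DNA, and in the weakest 208.5 and 166 bp and 216 and 186 bp. A wider peak can meet a partner at more positions, and this was not separated from binding. On native DNA the order depended on the threshold, since among peaks of at least 5-fold enrichment in both lists shared minus native-only was −3 bp (−16.9 to 6.90, combined from the 95% intervals of both medians for counting error). The other 7 constructs had wider shared peaks in both lists as well.

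**Figure D2:**
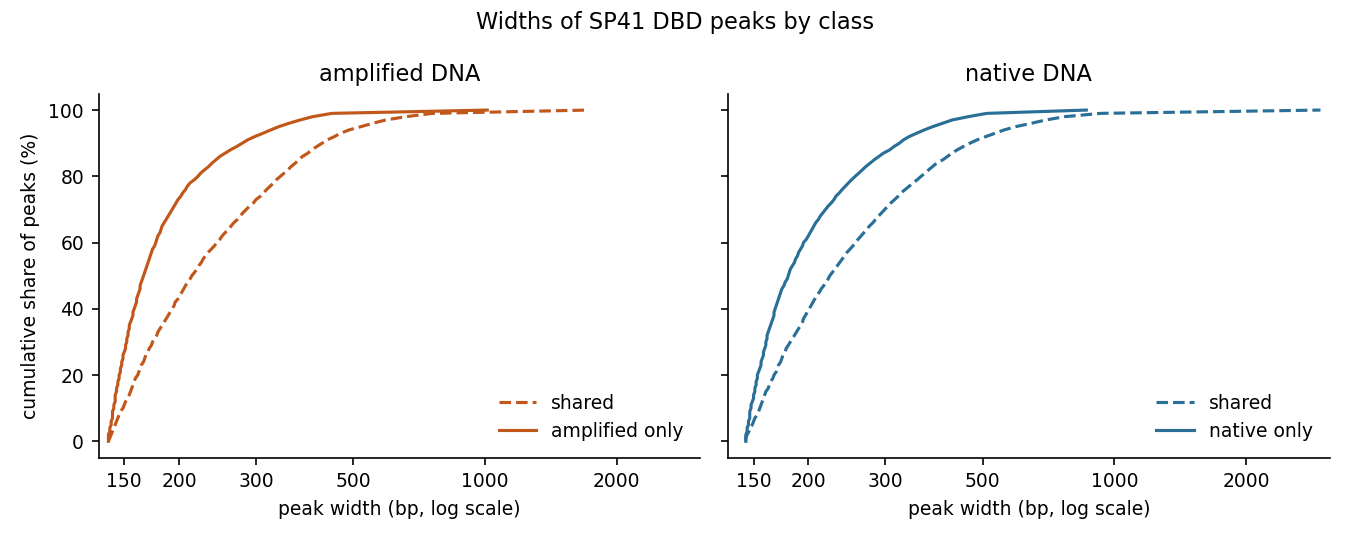
Cumulative share of SP41 DBD peaks (%, vertical axis) up to a given width (bp, log scale) on amplified (orange) and native DNA (blue), with peaks of that DNA only as solid and shared peaks as dashed lines. The dashed lines lie to the right, with medians of 214 and 224 bp against 166 and 180 bp.

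The widest peaks of both lists lay in the same place. The widest amplified peak covered 1722 bp at contig 13200, positions 50625 to 52346, and the widest native peak 2957 bp at positions 49437 to 52393 of that contig. It held 3 amplified peaks, so a stretch called as a single block on native DNA was divided on amplified DNA. The second widest amplified peak, of 1464 bp, was at contig 13485, positions 355013 to 356476, and had a native partner of 1502 bp. The second widest native peak, of 2061 bp, was at contig 13214, positions 97174 to 99234. Peaks of EGR, GLI and the SP41 full length protein lay in all of these stretches. In shared pairs the native peak was the wider in 55.7% and the amplified peak in 43.4%, and the log2 widths of partners had a Pearson's r of 0.52 over 7384 pairs, which is a description, since partners share the stretch of genome.

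The summits of shared peaks were close to each other. Each amplified peak was set beside the native peak it overlapped most, which gave 7384 pairs. The median distance between summits was 19 bp (18 to 19, 95% interval of the median for counting error), the middle 50% of pairs lay between 7 and 46 bp, and 159 pairs had the same summit base. Within 10 bp lay 33.5% of the pairs, within 50 bp 77.1% and within 100 bp 87.0%. The median signed distance was 0 bp. The amplified summit lay inside the native peak in 96.7% of pairs and the native summit inside the amplified peak in 94.6%.

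Large distances were found in wide peaks, and since partners overlap, their widths cap the distance between summits. Where the wider of both partners had at most 200 bp the median distance was 14 bp and 98.9% of pairs lay within 100 bp. Where it exceeded 500 bp, the median was 45 bp and 555 of 925 pairs lay within 100 bp. The largest distances, 1856 and 1532 bp, were in the wide stretches at contigs 13200 and 13214. Summits of weak peaks lay further apart, with a median distance of 33 bp in the weakest and 14 bp in the strongest quartile of amplified peaks. Among the 8 constructs the SP41 DBD and the GLI DBD had the largest median distance between amplified and native summits, 19 bp each, followed by 14 bp for the SP41 full length protein, 13 bp for YY1 DBD, 12 bp for YY1 full length, 11 bp for EGR, 9 bp for NRF DBD and 6 bp for NRF full length. These differences were not tested.

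Pileups of partners went together across pairs, with a Pearson's r of 0.81 on the log2 scale, whereas fold enrichments did so weakly, with 0.19. Ranks by −log10 q had a Spearman's rho of 0.42. The pairs share their sequence and part of the background, since the implied background itself had an r of 0.70 between lists, so these values describe the lists and no p is given.

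SP41 DBD peaks stood in groups along contigs. A neighbour of the same list within 1000 bp, edge to edge, was present at 32.6% of amplified (31.9 to 33.4) and 34.4% of native peaks (33.5 to 35.2). These shares were the highest of the 8 lists of each kind of DNA, before 31.2% for the SP41 full length protein on amplified and 30.6% for EGR on native DNA. They also follow the number of peaks in a list. Cut to 11904 peaks, the amplified SP41 DBD list had 28.7% (27.9 to 29.5), below the 31.2% of the 12006 full length peaks, so its first place on amplified DNA rested on the longer list. YY1 DBD, with 18619 amplified peaks, had 28.9%. Shared peaks had neighbours more often, 39.8% against 26.0% of the amplified-only peaks, and 36.9% against 30.5% of the native-only peaks. In runs of 5 or more peaks with gaps under 1000 bp, 73.8% of the amplified peaks were shared, against 42.9% of peaks standing alone, and on native DNA 71.1% against 58.9%.

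The longest amplified run held 13 peaks over 9098 bp at contig 13372, positions 32042 to 41139, and 11 of them had a native partner among the 9 native peaks there. The second held 9 peaks over 6980 bp at contig 13516, positions 584740 to 591719, of which 7 were shared. On native DNA the longest run held 15 peaks over 10977 bp at contig 13485, positions 419125 to 430101, of which 11 were shared, and 12 amplified peaks fell in it. The second native run, at contig 13482, positions 346245 to 353349, had 9 peaks, all shared, opposite 9 amplified peaks.

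Amplified peaks were found on 2539 contigs and native peaks on 1890, with 1458 contigs in common. The 1081 contigs with amplified peaks only held 1377 of these, and the 432 contigs with native peaks only held 461. By number of peaks, contigs 13522 and 13514 led the amplified list with 248 and 236, and contigs 13514 and 13516 the native list with 224 and 194. Contig 13522 was uneven, with 248 amplified against 153 native peaks, of which 43.5% (37.5 to 49.8) and 70.6% (62.9 to 77.2) were shared. Of the 57 contigs with at least 50 amplified peaks, 51 had more amplified than native peaks. Among them the shared part of the amplified peaks ran from 29.7% (20.5 to 40.9) at contig 13512 to 78.3% (66.4 to 86.9) at contig 13441, with a median of 59.1%.

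The shared part of the amplified peaks was lower on contigs of short reach than on those reaching beyond 50000 bp. Reach was taken as the furthest peak end of any list on a contig, a lower bound of its length. Beyond 200000 bp, 53.3% of amplified and 62.6% of native peaks were shared. With a reach of 2000 to 10000 bp, 29.8% (26.8 to 33.0) of amplified and 53.3% (48.7 to 57.8) of native peaks were, and the amplified list had 1.82 times as many peaks as the native list there, against 1.19 times on contigs beyond 200000 bp. On the shortest contigs, up to 2000 bp, 35.9% of amplified (32.8 to 39.2) and 53.4% of native peaks were shared, so the amplified share did not fall further. With a reach of 10000 to 50000 bp the amplified share was 38.8% (36.2 to 41.4), and this interval overlaps that of the shortest contigs. From 50000 to 200000 bp it was 47.0% (45.5 to 48.5).

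**Figure D3:**
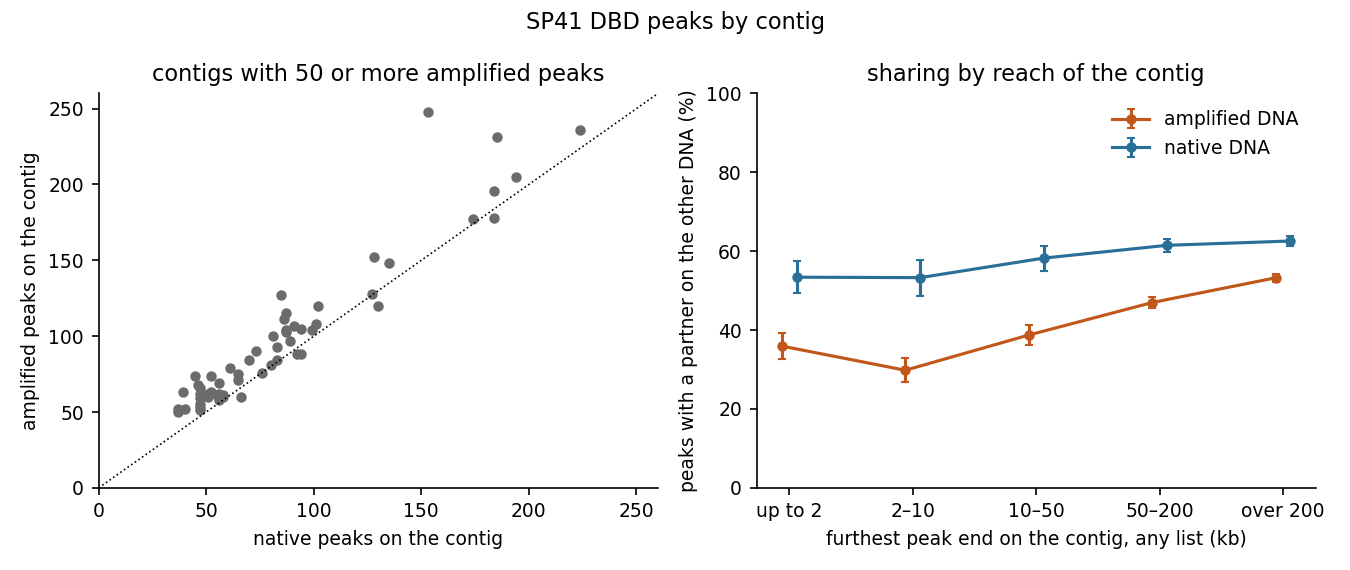
Left, amplified against native SP41 DBD peaks on each of the 57 contigs with at least 50 amplified peaks (dotted line, equal numbers). Right, share of peaks with a partner (%, 95% Wilson intervals) on amplified (orange) and native DNA (blue) by the reach of the contig in kb. Most points lie above the line, and the amplified share is lowest, 29.8%, on contigs reaching 2000 to 10000 bp.

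The SP41 full length protein gave libraries that the classes had not used. On the same kind of DNA it had a peak at 66.7% of the shared amplified peaks and 54.9% of the shared native peaks, at 35.1% (34.1 to 36.2) of the amplified-only peaks and at 22.1% (21.0 to 23.3) of the native-only peaks. Its amplified list covered 1.62% and its native list 1.03% of the effective genome. On the other kind of DNA it had a peak at 12.6% of the amplified-only and 24.0% (22.8 to 25.2) of the native-only peaks. Native-only peaks of the DBD therefore met the full length protein on amplified DNA slightly more often than on native DNA.

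This order came with the lengths of the full length lists, 12006 amplified and 7341 native peaks. When both were cut to 7341 peaks, a setting added with the data in view, amplified-only peaks met the full length protein at 20.7% on amplified and 12.6% on native DNA, and native-only peaks at 13.6% on amplified and 22.1% on native DNA. At this length 12.1% of amplified-only peaks met a full length peak on amplified DNA only and 3.99% on native DNA only. For native-only peaks these shares were 4.85% and 13.4%. Most peaks met the full length protein in neither list, 75.3% of the amplified-only and 73.0% of the native-only peaks. Among peaks it met on a single kind of DNA, the full length protein thus mostly differed in the same direction as the DBD. The control library of each kind of DNA was common to both. The part of the common control was not tested.

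Other factors were found at 60.9% of all amplified and 64.7% of all native SP41 DBD peaks, counting NRF, YY1, EGR and GLI on either kind of DNA. Over all 8 constructs, the SP41 DBD included, 52.6% of amplified and 56.7% of native peaks met a peak of another factor. Higher shares were found for EGR DBD (79.8 and 73.9%), NRF DBD (63.9 and 66.6%) and the SP41 full length protein (61.5 and 71.5%). The remaining constructs had lower ones, down to 30.1% for YY1 DBD on amplified and 30.7% for YY1 full length on native DNA. The set of other factors differs by construct. Among SP41 DBD peaks the share was 74.1% (73.1 to 75.1) of the shared amplified, 48.7% (47.6 to 49.8) of the amplified-only and 50.3% (48.8 to 51.7) of the native-only peaks. A gap remained within quartiles of −log10 q, with 81.9% of shared and 61.8% of amplified-only peaks in the strongest and 67.6% and 42.9% in the weakest. On native DNA these were 83.3% and 64.8% in the strongest and 64.2% and 43.6% in the weakest. Strength still varies inside a quartile, and peaks were not matched for pileup or background. Median width grew with the number of other factors, from 166 bp with 0 to 235 bp with 3 on amplified DNA and from 180 to 264 bp on native DNA. Peaks met by no other factor and not by the SP41 full length protein made up 11.0% of the shared amplified peaks, 35.2% of the amplified-only and 36.8% of the native-only peaks.

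EGR was the most frequent companion. It had a peak at 57.5% of shared amplified peaks, 25.7% of amplified-only and 30.6% of native-only peaks, and on the same DNA the overlap took 57.7% of the 6336 amplified EGR peaks and 23.6% of the amplified SP41 DBD peaks. On native DNA it took 42.9% of the 12855 EGR peaks and 46.3% of the SP41 DBD peaks. GLI followed, on either kind of DNA, with 27.0% of shared amplified, 16.4% of amplified-only and 16.4% of native-only peaks. Its amplified list met 11.1% of shared amplified and 10.6% of amplified-only peaks, and its native list 23.1% and 10.4%. The gap between these classes thus came from the native list, and shared peaks by definition have a native SP41 DBD peak. YY1 differed less between classes, with 21.4% of shared amplified, 19.1% of amplified-only and 17.6% of native-only peaks. The amplified YY1 DBD list met 17.6% of shared amplified and 17.1% of amplified-only peaks, and the native one 15.1% and 9.69%. NRF was at 2.97, 2.72 and 1.56%, with lists that are short. Over all SP41 DBD peaks, EGR on either kind of DNA was at 40.95% of amplified and 47.05% of native peaks. These shares were 21.5% and 23.1% for GLI, and 20.2% and 20.1% for YY1. The amplified and native EGR lists covered 0.796% and 1.85% of the effective genome. Those of GLI covered 0.564% and 1.197%, and those of YY1 DBD 2.49% and 1.804%. The amplified EGR list thus met more SP41 DBD peaks than the larger YY1 DBD list.

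At equal list length, the other zinc finger DBDs were more frequent on the DNA on which the SP41 DBD had its peak. This cut was not among the planned settings. In the lists as deposited, where those of EGR and GLI are longer on native DNA, this order held at native-only peaks. At amplified-only peaks it did not hold for EGR, with 14.7% on amplified and 23.6% on native DNA. GLI was nearly level there, with 10.6% and 10.4%. At amplified-only peaks EGR had an amplified peak without a native one at 2.15% and a native peak without an amplified one at 11.0%, and GLI had these at 6.06% and 5.81%. At native-only peaks the shares were 0.303% and 22.2% for EGR and 0.692% and 14.5% for GLI. With the lists of each construct cut to equal length, amplified-only peaks met GLI DBD at 10.6% on amplified and 5.32% on native DNA, and native-only peaks met it at 1.95% on amplified and 9.41% on native DNA. For EGR DBD these shares were 14.7% (amplified DNA) and 11.5% (native DNA) of amplified-only peaks, and 8.41% and 16.3% of native-only peaks. For YY1 DBD these shares were 13.5% (amplified DNA) and 9.69% (native DNA) of amplified-only peaks, and 9.60% and 13.8% of native-only peaks. All lists on a kind of DNA share its control library, so these constructs are not independent of each other.

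**Figure D4:**
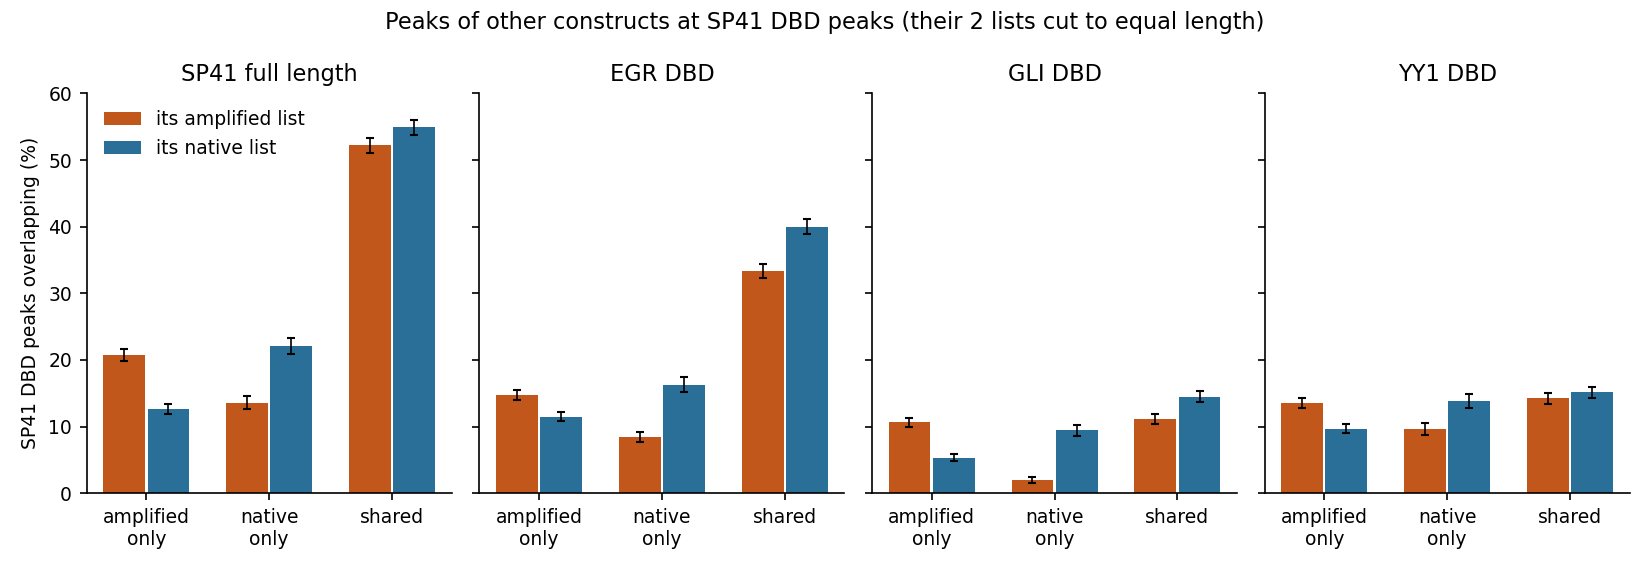
Share of SP41 DBD peaks (%, vertical axis) that are amplified-only, native-only or shared (amplified peaks) and overlap a peak of the SP41 full length protein, EGR, GLI or YY1 DBD in its amplified (orange) or native list (blue), with the lists of each construct cut to equal length and 95% Wilson intervals. In all 4 panels the orange bar is the higher at amplified-only peaks and the blue bar at native-only peaks.

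Distances between summits separated the companions. On the same DNA the SP41 DBD summit lay a median of 13 bp from that of the full length protein on amplified and 21 bp on native DNA, and 19 bp and 28 bp from that of the EGR DBD. GLI DBD summits lay at 26 bp and 47 bp, and YY1 DBD summits at 52 bp and 70 bp. On amplified DNA the EGR value equalled the 19 bp between the SP41 DBD's own summits on both kinds of DNA. For each of these constructs the distance was smaller on amplified DNA, where the SP41 DBD peaks were also narrower, with a median of 182 bp against 203.5 bp on native DNA.

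**Figure D5:**
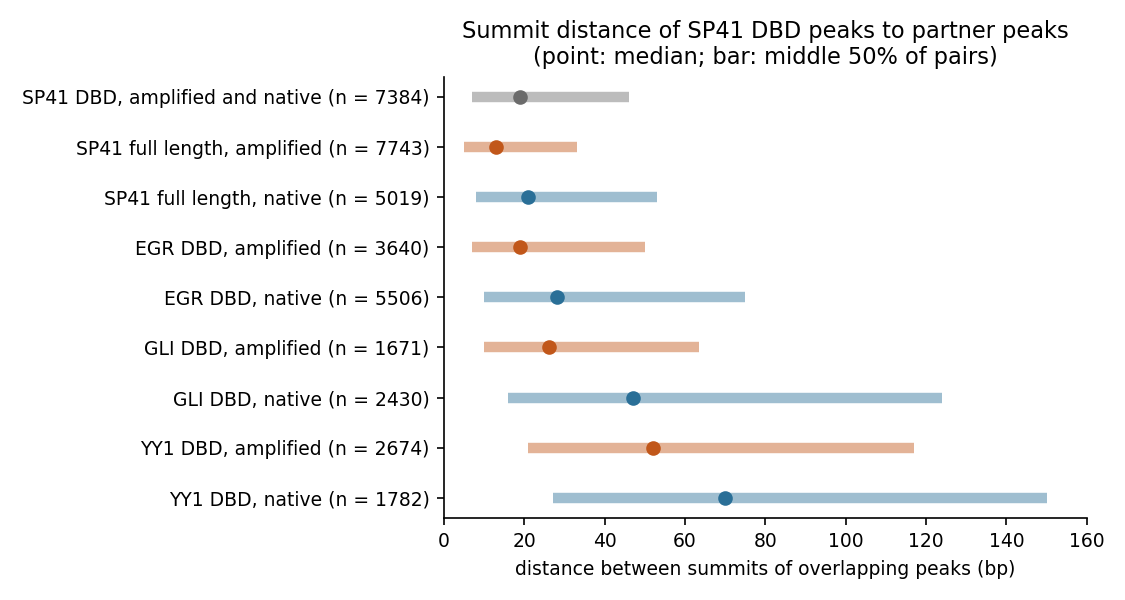
Distance in bp between the summits of SP41 DBD peaks and of the peaks they overlap most (point, median; bar, middle 50% of pairs), for the SP41 DBD on both kinds of DNA (grey) and for 4 constructs on amplified (orange) and native DNA (blue), with the number of pairs. Medians run from 13 bp for the full length protein on amplified DNA to 70 bp for YY1 DBD on native DNA.

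The strongest peaks of a single kind of DNA with no other list present had lower ranks by −log10 q than those above, though on amplified DNA their fold enrichment was higher. On amplified DNA they were at contig 7745, positions 401 to 551, with rank 122 and 11.6-fold enrichment, and at contig 13322, positions 62131 to 62358, with rank 265 and 9.82-fold enrichment. The native ones were at contig 13433, positions 99467 to 99635, with rank 560 and 5.39-fold enrichment, and at contig 10940, positions 6595 to 6752, with rank 570 and 4.27-fold enrichment. A stretch of touching peaks at contig 13516, from position 142624 to 143444, held amplified and native peaks of all 5 factors and a shared SP41 DBD pair. The pair itself met peaks of EGR, GLI and the SP41 full length protein, and none of NRF or YY1. Its amplified peak, at positions 142693 to 143029, had a pileup of 50 and rank 950, and its native partner, at positions 142729 to 142996, a pileup of 33 and rank 1793.

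Most amplified-only peaks did not lie within 500 bp of a called native peak. Signal below the q cutoff on the other DNA was not examined. Of the 8015, 769 (9.59%) lay within 500 bp of a native peak without touching it, 65.7% lay within 10000 bp and 17.2% were on contigs without any native peak. Of the 4623 native-only peaks, 724 (15.7%) lay within 500 bp of an amplified peak, 80.8% within 10000 bp and 9.97% on contigs without an amplified peak.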

How the data were processed

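The authors ran MACS2 2.1.2 on each library by itself, per the file headers, against the empty HaloTag library of that DNA (paired fragments, q cutoff of 0.05, 1 duplicate kept at most, random down-sampling to the smaller library, effective genome 166679601 bp). The submitters' processing notes name CASAVA 1.8.2 and MACS2, and fastp, Bowtie, BS-Seeker2 and Bowtie2, for the series, without saying which aligner served here. Per the file headers, the deposited pileup is a signal of fragment coverage at the summit, unscaled. The deposited fold enrichment is a ratio to the local control background, per the file headers. The deposited p-values and q-values are −log10 values, per the file headers, and the deposited start, end, summit and length are in bp.

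From these, overlaps of at least 1 bp, widths, gaps and summit distances were computed, and the implied background as (pileup + 1)/fold − 1, which assumes the usual MACS2 definition. Counts equalled bedtools 2.31.1 in 32 of 32 checks, and the code was tested on simulated lists. Named regions follow rank, width, summit distance or run length by a written rule. The members and all measures were chosen with earlier results of these data known. Python 3.11.15, numpy 2.4.6, pandas 2.3.3, scipy 1.17.1 and matplotlib 3.10.9 were used. Peaks are not replicates, and with 1 library a side no test was made. The other 20 samples of the series were not analysed here, apart from the 2 controls through the authors' calls.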

Additional observations from a re-analysis of the deposited data

Results flagged for a closer look

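The SP41 DBD had a log2 ratio of amplified to native peak numbers of 0.37, opposite in sign to −1.02 for EGR DBD, −0.87 for GLI DBD and −1.50 for YY1 full length. The ratios of the other 4 constructs had the same sign as that of the SP41 DBD, with 0.90 for NRF full length, 0.58 for NRF DBD, 0.71 for SP41 full length and 0.50 for YY1 DBD. These differences were not tested, since every construct had 1 library on each kind of DNA.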

How the results depend on the processing

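Each value below replaces the one in the report, and shares of shared peaks are of amplified peaks. With peaks of −log10 q of at least 5 in both lists, the log2 ratio of peak numbers was 0.72, 39.6% of amplified and 64.2% of native peaks had a partner, shared peaks were 41 bp wider than amplified-only peaks (48 bp with all peaks), summits lay 16 bp apart, and 29.3% of amplified and 28.4% of native peaks had a neighbour. With peaks of at least 5-fold enrichment, the log2 ratio was 1.04, 12.7% of amplified and 26.1% of native peaks had a partner, and the width differences were 26 bp to amplified-only and −3 bp to native-only peaks (44 bp with all peaks), with an interval of −16.9 to 6.90 bp. Per usable fragment, counted before down-sampling, the log2 ratio was 0.19. With lists of equal length, 52.9% of amplified and 52.5% of native peaks had a partner and 28.7% of amplified peaks a neighbour. With reciprocal overlap of at least 50%, the partner shares were 40.3% and 52.1%, the width differences 45 and 28 bp and the summit distance 17 bp. With summits within 50 bp the partner shares were 37.0% and 47.9%, and with neighbours counted between summits those shares were 26.6% and 27.6%. In the lists as deposited the amplified share was the lower for partners and for neighbours. For neighbours at −log10 q of at least 5 the intervals overlapped, with 28.5 to 30.1% on amplified and 27.4 to 29.4% on native DNA. For partners at equal length the shares were nearly the same, as follows from partners that are nearly all single.

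Shares with another factor, for shared, amplified-only and native-only peaks, were 50.5, 36.4 and 47.6% on the same kind of DNA, 69.4, 37.0 and 21.3% on the other kind, 68.0, 42.1 and 42.9% with other lists at −log10 q of at least 5, 77.3, 53.7 and 57.5% with the SP41 DBD lists at that limit, and 64.9, 42.6 and 41.6% with at least 50% of the peak covered. Shares with the full length protein were 54.9, 12.6 and 24.0% on the other kind of DNA, 63.4, 32.2 and 15.6% with its lists at that limit, 74.3, 43.5 and 32.8% with the DBD lists at that limit, and 61.3, 33.1 and 19.7% with at least 50% covered. With its lists cut to equal length, chosen after seeing the data, they were 52.2, 20.7 and 22.1%. Shared peaks had the highest share in all 12 of these comparisons, the unaltered ones included, while the order of amplified-only and native-only peaks changed with the setting. For the full length protein, and for other factors split by kind of DNA, native-only peaks were set against different lists. Those lists differ from the ones used for shared and amplified-only peaks, also in length where they were not cut. Limiting the peaks of a single kind of DNA to those over 500 bp from the other list, also chosen after seeing the data, gave 48.5 and 49.9%.

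Thresholds shorten the lists, and beyond that the cause of these changes was not tested. No paired analysis was possible because each kind of DNA had 1 library, and for the same reason none was left out. Depth was 2945461 amplified and 2603367 native fragments, and intervals cover counting error only.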
